A study of Homo sapiens with 15 samples.

Results

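Transcripts of the IGF-binding proteins and IGF receptors were followed in human breast epithelial cells of the HMT3522 series, cultured in 3 dimensions within laminin-rich matrix. The 10 members were chosen by the platform annotation and by family, as the genes named IGFBP2 to IGFBP7, IGF1R, IGF2R, INSR and IRS1, and they are 10 of the 12149 genes with a probe set assigned to 1 gene. IGFBP3 was selected on its own values, which are high in S1, low in T4 and low after treatment, so its levels are given as a description with no test. The series holds 15 samples in 3 groups. S1 is the nonmalignant line, with 3 samples, and T4 is its malignant counterpart, with 3 samples. In the 9 samples called T4R here, T4 cells had been treated with an agent that the labels describe as reverting, and each agent had 1 sample: the metalloproteinase inhibitor GM6001, an inhibitor named MMPs and ADAMs, TNF protease inhibitor–2, the MAPK pathway inhibitor PD98059, the PI3K inhibitor LY294002, dominant-negative Rap1, the EGFR inhibitors Tyrphostin AG 1478 and mAb225, and the β1-integrin inhibitor AIIB2. Each of S1 and T4 is 1 cell line, so the contrast between them is a contrast of 2 lines. No dose or duration is stated for them.

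The insulin-like growth factors IGF1 and IGF2 are secreted ligands that signal through IGF1R, a receptor tyrosine kinase closely related to the insulin receptor INSR. Ligand-bound receptors phosphorylate adaptors such as IRS1, which recruit PI3K and so activate AKT. The IGF-binding proteins are secreted carriers that hold the ligands in the extracellular space and can limit or prolong their access to receptors, while IGF2R takes up IGF2 for degradation and sorts lysosomal enzymes. In mammary epithelium the axis is known for its part in growth and survival, and IGFBP5 for its rise during involution of the gland.

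The members' most distinct patterns belong to 3 binding proteins. IGFBP3 was high in S1 and near the bottom of the array's range in every T4 and T4R sample. IGFBP5 was low in T4 and higher in all 9 T4R samples, and IGFBP6 had the opposite course, higher in T4 and lowest in T4R. The 250 bases before the RefSeq start site of these 3 genes (GRCh38.p14) are printed here in lower case, because they let genes that differ in course after treatment be set side by side, and the capitals mark CG dinucleotides. The IGFBP3 window is chr7:45921273-45921522 on the minus strand, that of IGFBP5 is chr2:216695550-216695799 on the minus strand, and that of IGFBP6 is chr12:53097417-53097666 on the plus strand.
IGFBP3: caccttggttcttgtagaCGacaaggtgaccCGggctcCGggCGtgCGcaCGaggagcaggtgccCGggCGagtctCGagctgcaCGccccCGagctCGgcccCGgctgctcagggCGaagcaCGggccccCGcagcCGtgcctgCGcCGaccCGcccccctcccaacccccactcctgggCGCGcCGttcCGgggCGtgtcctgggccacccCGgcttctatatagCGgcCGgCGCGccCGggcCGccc
IGFBP5: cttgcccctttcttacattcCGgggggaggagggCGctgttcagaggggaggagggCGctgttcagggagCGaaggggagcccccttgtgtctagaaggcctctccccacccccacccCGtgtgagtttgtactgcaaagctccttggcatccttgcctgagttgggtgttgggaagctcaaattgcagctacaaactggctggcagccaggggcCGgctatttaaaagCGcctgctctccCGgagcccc
IGFBP6: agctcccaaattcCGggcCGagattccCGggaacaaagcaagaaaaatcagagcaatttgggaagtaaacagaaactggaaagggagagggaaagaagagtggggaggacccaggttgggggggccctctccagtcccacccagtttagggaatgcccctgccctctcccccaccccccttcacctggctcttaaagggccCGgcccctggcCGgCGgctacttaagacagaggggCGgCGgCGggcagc

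The IGFBP3 window held 32 CG dinucleotides, a number reached by 9.52% of the 35116 RefSeq promoter windows of this length, whose median was 11. IGFBP5 held 8, a number reached by 56.3% of windows, and IGFBP6 held 9, a number reached by 54.1%. Promoters of 9 of the 10 members were matched, in 11 entries of which 3 were for IGFBP2, and IGFBP7 had none. The receptors and the adaptor had 48 CG dinucleotides before IGF1R, 33 before IGF2R, 28 before INSR and 39 before IRS1, so a CG-rich start was not peculiar to IGFBP3. Methylation was not measured in this series. Of the motifs searched on both strands, the FOXO motif GTAAACA, present in 2.98% of windows, occurred before IGFBP6 and before neither IGFBP3 nor IGFBP5. The AP-1 motif TGANTCA (6.57% of windows) and the TATA motif TATAAA (10.7% of windows) occurred in none of these 3 windows. No binding was measured, and these matches describe letters only.

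Values are deposited log2 expression values, in which a difference of 1 is a 2-fold change. They came in 2 tables, one for each array type, and sample medians lay between 7.33 and 7.4. The first table holds 8 samples, namely S1 samples 1 and 2, every T4 sample and those treated with LY294002, GM6001 or MMPs and ADAMs, and the second holds the other 7. S1 sample 3 is thus the sole S1 sample of its array type, and it stood apart from the other S1 samples in several members. Whether samples sharing a group were separate cultures is not stated, so the p-values reflect sample spread that may be technical. For T4R that spread also holds differences between agents. The lower quartile of all probe sets lay between 6.87 and 6.91, which serves here as a mark for dim signals because no detection calls were used.

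Of the 7 epithelial markers, 6 were above the tested limit. As 9111 of all 12149 genes were too, that count does not by itself show cell identity. KRT5 was at 13.6 ± 0.07, KRT14 at 13.9 ± 0.14 and EPCAM at 7.96 ± 0.20 in S1 (mean ± SD, n = 3). KRT19 was below the limit in all groups. KRT18 was higher in T4 than in S1 (0.98, limma adjusted p = 0.00331) and lower in T4R than in T4 (-1.07, 0.00255). EPCAM was higher in T4R than in T4 (0.93, limma adjusted p = 0.0214) and KRT8 higher in T4R than in S1 (0.71, 0.0342). Of the markers for fibroblasts, endothelium, leukocytes and adipocytes, 19 of 20 were measured and 12 of them lay below the tested limit. Their mean was 6.96 to 7.02 in S1 samples, 7.05 to 7.07 in T4 samples and 7.03 to 7.27 in T4R samples. Among those above it were COL1A1, a collagen gene, at 8.05 ± 0.75 in S1, 8.94 ± 0.14 in T4 and 9.72 ± 0.79 in T4R (n = 3, 3 and 9), DCN, a proteoglycan gene, at 7.73 ± 0.84, 7.70 ± 0.39 and 7.97 ± 0.73, and CD14, a monocyte receptor gene, at 6.95 ± 0.34, 7.99 ± 0.67 and 7.66 ± 0.16. CD14 was higher in T4 than in S1 (0.97, limma adjusted p = 0.0132), where 26.9% of all genes tested passed. In T4R against S1, COL1A1 (1.465, limma adjusted p = 0.0237), CD14 (0.77, 0.0183) and COL3A1 (0.21, 0.0486) were higher, where 23.2% passed. Other fibroblast markers were dim, with COL1A2 at 7.25 ± 0.08 in S1, 7.13 ± 0.09 in T4 and 7.22 ± 0.07 in T4R. LUM, PDGFRA and THY1 lay below the limit. The part of other cells in the members' levels was not tested. In such bulk samples, fewer cells of a kind and less RNA per cell cannot be told apart.

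**Figure D1:**
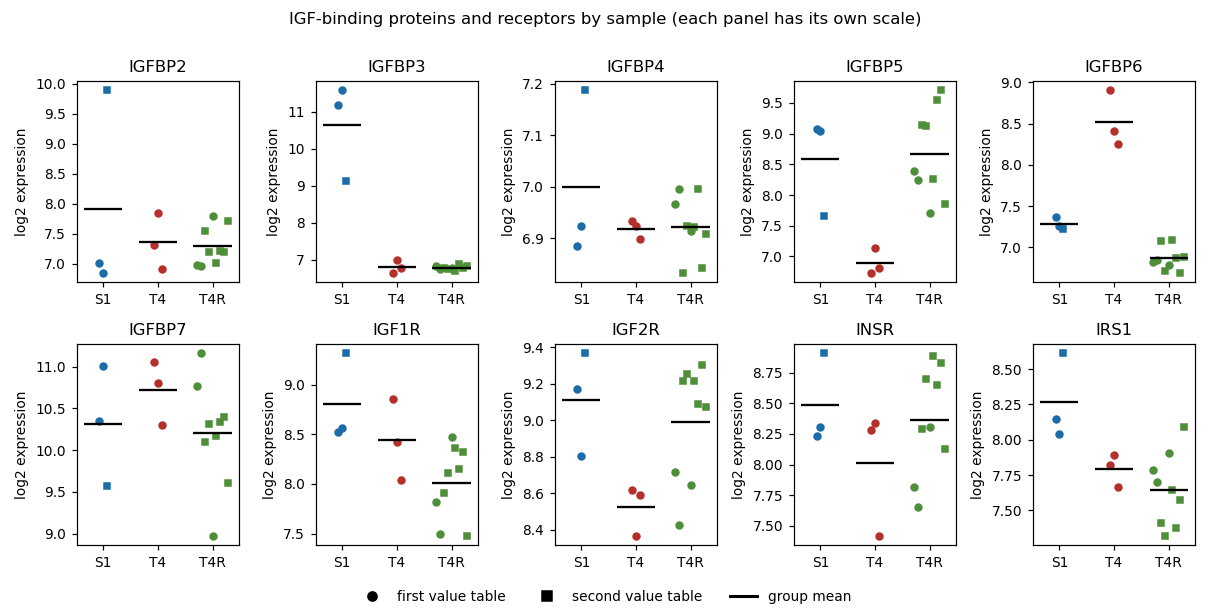
Deposited log2 expression of the 10 members in the S1 (3), T4 (3) and T4R (9) samples; each point is a sample, circles and squares are the first and second value table, bars are group means, and every panel has its own vertical scale. IGFBP3 is above 9 in S1 alone, IGFBP5 is lowest in T4 and IGFBP6 is highest in T4.

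IGFBP3, the main circulating IGF carrier, was at 11.18 in S1 sample 1, 11.58 in S1 sample 2 and 9.12 in S1 sample 3. In T4 it was at 6.64, 6.98 and 6.77. In T4R it was at 6.84 with GM6001, 6.75 with MMPs and ADAMs, 6.77 with TNF protease inhibitor–2, 6.74 with PD98059, 6.76 with LY294002, 6.70 with dominant-negative Rap1, 6.88 with Tyrphostin AG 1478, 6.76 with mAb225 and 6.84 with AIIB2. The lowest S1 sample was therefore above every T4 and T4R sample, and the T4R samples all lay within the range of the 3 T4 samples. In 2 of 3 T4 samples and 9 of 9 T4R samples the value was below the lower quartile of its own array, so that a further fall could hardly be seen.

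The group means of IGFBP3 were 10.6 ± 1.32 in S1, 6.80 ± 0.17 in T4 and 6.78 ± 0.06 in T4R (mean ± SD, n = 3, 3 and 9). In the fit over all samples, with the table as a term, T4 was lower than S1 by 16.2-fold (log2 difference -4.02 ± 0.38 SE) and T4R was lower than S1 by 12.6-fold (-3.66 ± 0.31 SE). Without S1 sample 3 the latter was -4.60. The fitted difference of T4R from T4 was 0.36 ± 0.35 SE. That difference takes in the table term, for which S1 sample 3 counts, and without that sample it was -0.013 ± 0.11 SE. These contrasts chose the gene, and the values carry no test.

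A second IGFBP3 probe set was also high in S1 alone. It was at 9.23 ± 0.88 in S1, 6.62 ± 0.03 in T4 and 6.71 ± 0.10 in T4R (mean ± SD), and its fitted difference of T4 from S1 was -2.71 ± 0.28 SE. S1 sample 3 was again the lowest S1 sample on this probe set.

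The genes whose pattern was most like that of IGFBP3 were ranked by Pearson's correlation over the 15 samples after removal of the table term. ALOX15B, a lipoxygenase gene, came first at 0.993, followed by HOXA2, a homeobox gene, at 0.988 and SH3YL1 at 0.985. MLPH, which encodes an adaptor of vesicle transport, was at 0.984, the selenium-binding protein gene SELENBP1 at 0.983 and the RNA exosome gene EXOSC4 at 0.982. CACNA2D3, a calcium channel subunit gene, was at 0.981 and GTPBP6 at 0.979. ALOX15B stood at 9.67 ± 0.70 in S1, 7.01 ± 0.06 in T4 and 6.95 ± 0.10 in T4R (mean ± SD). These coefficients are descriptive, because the points share 2 lines and 2 tables and the likeness is mostly the gap between S1 and the rest. By Spearman's coefficient HOXA2 ranked 1 and SH3YL1 ranked 97, and in the first table alone ALOX15B ranked 3.

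**Figure D2:**
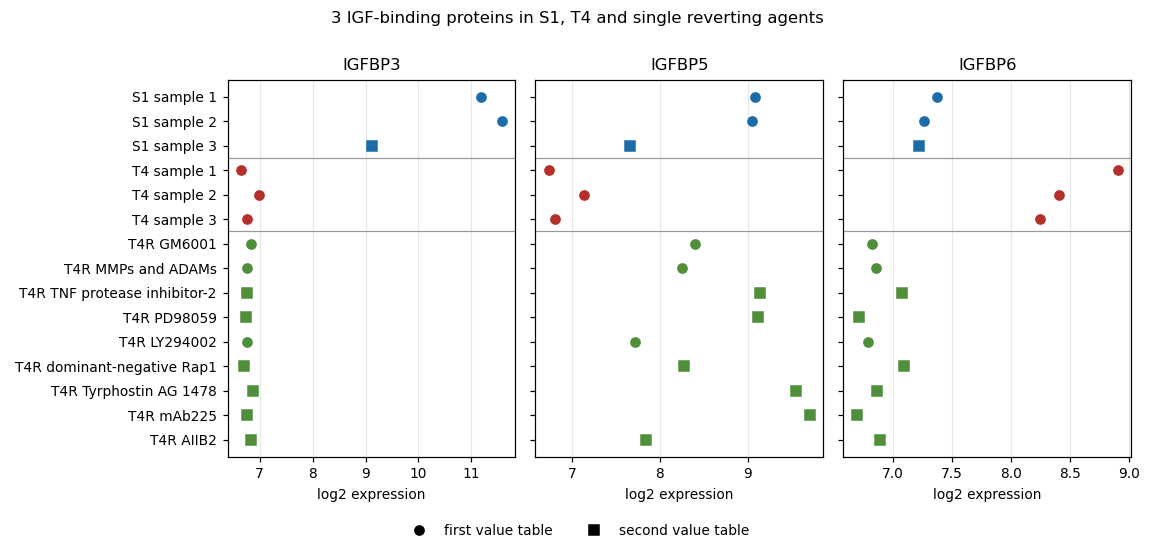
Deposited log2 expression (horizontal axis, own scale per panel) of IGFBP3, IGFBP5 and IGFBP6 in each of the 15 samples, with circles for the first and squares for the second value table. All 9 T4R samples stay at the T4 level for IGFBP3, lie above the T4 samples for IGFBP5 and lie below the S1 and T4 samples for IGFBP6.

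IGFBP5, the most conserved of the IGF-binding proteins, was at 9.08, 9.05 and 7.66 in S1 samples 1, 2 and 3. In T4 it was at 6.73, 7.14 and 6.80. In T4R it was at 8.40 with GM6001, 8.25 with MMPs and ADAMs, 9.14 with TNF protease inhibitor–2, 9.12 with PD98059, 7.71 with LY294002, 8.27 with dominant-negative Rap1, 9.54 with Tyrphostin AG 1478, 9.71 with mAb225 and 7.85 with AIIB2. No T4 sample overlapped with S1 or with T4R, while S1 and T4R overlapped. In 2 of 3 T4 samples IGFBP5 was below the lower quartile of its array, so the folds that follow are measured against a dim signal. The highest T4R values were those of both EGFR inhibitors and the lowest those of LY294002 and AIIB2, each from 1 sample with no test.

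The fit put IGFBP5 3.06-fold lower in T4 than in S1 (log2 difference -1.61 ± 0.54 SE, limma adjusted p = 0.039). It was 3.03-fold higher in T4R than in T4 (1.60 ± 0.50 SE, limma adjusted p = 0.0458, higher in 9 of 9 samples). The difference of T4R from S1 was -0.016 ± 0.45 SE (limma adjusted p = 0.985). Of all 9111 genes tested, 26.9% passed in T4 against S1 and 14.9% in T4R against T4. Both IGFBP5 calls were close to the threshold. The fall in T4 was not called when S1 sample 1 or 2, any T4 sample or the GM6001 sample was left out (adjusted p up to 0.171) or with no filter on dim genes (0.0535). The rise in T4R was not called when any S1 or T4 sample or the sample with GM6001, MMPs and ADAMs, TNF protease inhibitor–2 or PD98059 was left out (adjusted p up to 0.119). Within the first table, where array type does not vary, IGFBP5 averaged 9.06 in S1, 6.89 in T4 and 8.12 in T4R, and there T4R was below S1 (-0.94 ± 0.21 SE, limma adjusted p = 0.0195). Within the second table the direction was opposite. Every T4R sample there, from 7.85 to 9.71, was above its only S1 sample at 7.66, with a mean difference of 1.28. The fitted difference of T4R from S1 thus joins 2 tables that disagree.

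The other 4 IGFBP5 probe sets were dimmer, with means between 6.87 and 7.28. They differed in the same directions but by less, with T4 minus S1 between -0.41 and -0.17 and T4R minus T4 between 0.009 and 0.37. With the mean of all probe sets in place of the brightest, T4 minus S1 was -0.55 (limma adjusted p = 0.0351) and T4R minus T4 was 0.50 ± 0.17 SE (limma adjusted p = 0.0619).

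**Figure D3:**
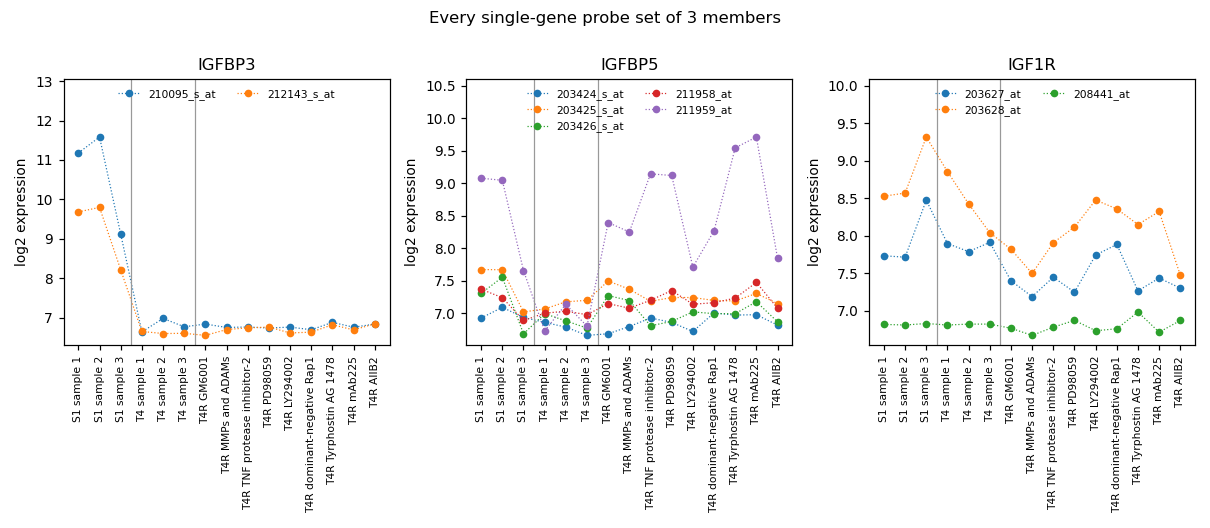
Deposited log2 expression of every single-gene probe set of IGFBP3, IGFBP5 and IGF1R in the 15 samples; dotted lines join values of a probe set, grey lines separate S1, T4 and T4R, and panels have their own vertical scale. Both IGFBP3 probe sets are high in S1 alone, and 1 of 5 IGFBP5 probe sets carries most of the range.

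IGFBP6, a binding protein with a preference for IGF2, was at 7.37, 7.26 and 7.22 in S1. In T4 it was at 8.91, 8.41 and 8.25. In T4R it was at 6.83 with GM6001, 6.85 with MMPs and ADAMs, 7.08 with TNF protease inhibitor–2, 6.72 with PD98059, 6.79 with LY294002, 7.09 with dominant-negative Rap1, 6.87 with Tyrphostin AG 1478, 6.69 with mAb225 and 6.89 with AIIB2. No 2 groups overlapped: every T4 sample was above every S1 sample, and every S1 sample was above every T4R sample. In 7 of 9 T4R samples IGFBP6 was below the lower quartile of its array, so folds against T4R are measured against a dim signal.

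In T4, IGFBP6 was 2.37-fold higher than in S1 (log2 difference 1.25 ± 0.15 SE, limma adjusted p = 8.2e-05). In T4R it was 3.19-fold lower than in T4 (-1.67 ± 0.14 SE, limma adjusted p = 1.2e-05, lower in 9 of 9 samples). Both calls were kept whichever sample was left out, with adjusted p up to 0.000797 and 0.000104. T4R was also 1.35-fold lower than S1 (-0.43 ± 0.13 SE, limma adjusted p = 0.0277). That last call was lost without any of the 3 S1 samples or without the sample with GM6001, MMPs and ADAMs or LY294002 (adjusted p up to 0.1), and in the first table alone (0.0909). The table term was small for this gene, at 0.026 ± 0.11 SE.

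IGFBP2, a carrier that binds integrins, was at 7.02 and 6.85 in S1 samples 1 and 2 and at 9.89 in S1 sample 3. In T4 it was at 7.31, 7.85 and 6.92, and the T4R samples ran from 6.97 to 7.79 with a median of 7.20. S1 sample 3 was the highest of all 15 samples, while the other S1 samples lay within or below the T4 and T4R values. The fitted difference of T4 from S1 was -0.30 ± 0.53 SE (limma adjusted p = 0.735). A fit with blocked replicate numbers and the table term gave 0.65 ± 0.16 SE (limma adjusted p = 0.0151), and S1 sample 3 cannot count in that fit. The block without the table term gave -0.56 ± 0.78 SE (limma adjusted p = 0.678), and the unblocked fit without both samples numbered 3 gave 0.65 with no call (limma adjusted p = 0.124). T4R minus T4 was -0.60 ± 0.50 SE (limma adjusted p = 0.474).

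IGFBP7, a low-affinity binding protein also known as a secreted matrix protein, was the member of highest signal. It was at 10.35, 11.01 and 9.57 in S1 and at 11.06, 10.81 and 10.3 in T4. The T4R samples ran from 8.97 with LY294002 to 11.16 with MMPs and ADAMs, with a median of 10.3. The groups overlapped, and no contrast passed the test: T4 minus S1 was 0.28 ± 0.47 SE (limma adjusted p = 0.709) and T4R minus T4 was -0.26 ± 0.43 SE (limma adjusted p = 0.746). A second IGFBP7 probe set gave 0.36 ± 0.48 SE and -0.21 ± 0.45 SE. Without the LY294002 sample the sign of T4R minus T4 turned, to 0.31 ± 0.25 SE (limma adjusted p = 0.479).

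IGFBP4, a target of the protease PAPPA, was dim in all samples and was not tested. It lay at 6.89, 6.92 and 7.19 in S1, at 6.93, 6.92 and 6.898 in T4 and between 6.83 and 6.996 in T4R.

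IGF1R, the main signalling receptor of the axis, was at 8.53, 8.57 and 9.31 in S1. In T4 it was at 8.85, 8.42 and 8.04. The T4R samples ran from 7.47 with AIIB2 and 7.50 with MMPs and ADAMs to 8.47 with LY294002, with a median of 8.11. All 9 T4R samples lay below the lowest S1 sample, whereas T4 overlapped with both. T4R was 1.85-fold lower than S1 (log2 difference -0.88 ± 0.24 SE, limma adjusted p = 0.0168). Without S1 sample 3 the difference was -0.62 ± 0.30 SE and not called (limma adjusted p = 0.193), and the first table alone gave -0.62 ± 0.31 SE (limma adjusted p = 0.213). T4 minus S1 was -0.27 ± 0.29 SE (limma adjusted p = 0.547). T4R minus T4 was -0.62 ± 0.27 SE (limma adjusted p = 0.151) and passed the threshold without the LY294002 sample (-0.87 ± 0.24 SE, limma adjusted p = 0.0351). Of its other probe sets, 1 gave T4R minus S1 of -0.60 ± 0.17 SE, and the other, dim one gave -0.052 ± 0.06 SE. With the mean of all 3 it was -0.51 (limma adjusted p = 0.00911).

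IGF2R, the IGF2 clearance receptor, was at 9.17, 8.80 and 9.37 in S1. In T4 it was at 8.62, 8.36 and 8.59, below all S1 samples. In T4R it lay between 8.43 and 8.71 in the 3 samples of the first table and between 9.08 and 9.30 in the 6 of the second, so that the array types did not overlap. The table term was 0.54 ± 0.09 SE (limma adjusted p = 0.00287). The agents also differ between the tables, so within T4R agent and array type cannot be told apart. T4 was 1.33-fold lower than S1 (log2 difference -0.41 ± 0.12 SE, limma adjusted p = 0.0219), a call lost without S1 sample 1 (adjusted p = 0.138), without T4 sample 2 (0.0826) or with S1 and T4 samples alone (0.0892). With quantile normalization across tables and no table term that difference was -0.64 (0.0476). T4R was 1.23-fold lower than S1 (-0.30 ± 0.10 SE, limma adjusted p = 0.0421). That call was lost without S1 sample 1 or 3 or without the sample with GM6001, MMPs and ADAMs, TNF protease inhibitor–2, LY294002, Tyrphostin AG 1478 or AIIB2 (adjusted p up to 0.205), in the first table alone (0.103) and with the lowest 50% of genes left out (0.0527). It was also lost with tables entered as random blocks (-0.23, adjusted p = 0.25) and with quantile normalization and no table term (-0.13, 0.687). T4R minus T4 was 0.11 ± 0.11 SE (limma adjusted p = 0.582). A second IGF2R probe set gave T4 minus S1 of -0.287 ± 0.067 SE and T4R minus S1 of -0.273 ± 0.055 SE. With the mean of both probe sets, T4 minus S1 was -0.35 (limma adjusted p = 0.007).

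INSR was at 8.23, 8.31 and 8.91 in S1 and at 8.29, 8.34 and 7.41 in T4. The T4R samples lay between 7.66 and 8.30 in the first table and between 8.13 and 8.89 in the second, where the agents also differ. The table term was 0.65 ± 0.19 SE (limma adjusted p = 0.0314). The groups overlapped and no contrast passed the test, with T4 minus S1 at -0.25 ± 0.26 SE (limma adjusted p = 0.521) and T4R minus S1 at -0.34 ± 0.22 SE (limma adjusted p = 0.292).

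IRS1, the adaptor that couples these receptors to PI3K, was at 8.15, 8.04 and 8.61 in S1 and at 7.82, 7.89 and 7.67 in T4, where every sample was below every S1 sample. The T4R samples ran from 7.32 with PD98059 to 8.09 with AIIB2, with a median of 7.64. T4R was 1.52-fold lower than S1 (log2 difference -0.61 ± 0.17 SE, limma adjusted p = 0.0179). Without S1 sample 3 the difference was -0.30 ± 0.18 SE and not called (limma adjusted p = 0.303), as in the first table alone (0.079), and with array weights it was -0.39 (0.0117). T4 minus S1 was -0.49 ± 0.20 SE (limma adjusted p = 0.0923), past the threshold without the AIIB2 sample (0.0461).

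Of the 8 members tested other than IGFBP3, 3 passed the test for T4 against S1, with IGFBP6 higher and IGFBP5 and IGF2R lower. Of all genes tested 26.9% passed, 14.6% higher and 12.3% lower, so a count of 3 of 8 stands near the background. The median log2 difference was -0.28 over these 8 members and 0.007 over all genes tested. Without S1 sample 1 or T4 sample 2 only 1 of the 8, IGFBP6, passed.

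For T4R against T4, 2 of the 8 passed, IGFBP5 higher and IGFBP6 lower, where 14.9% of all genes passed, 6.46% higher and 8.44% lower. The medians were -0.19 and -0.004. Leaving out any S1 or T4 sample, or the sample with GM6001, MMPs and ADAMs, TNF protease inhibitor–2 or PD98059, left IGFBP6 as the 1 call, and without LY294002 there were 3.

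For T4R against S1, 4 of the 8 passed, all lower, namely IGFBP6, IGF1R, IGF2R and IRS1, and 0 were higher. Over all genes 23.2% passed, 11.8% higher and 11.4% lower, and the medians were -0.38 and 0.004. That count fell to 0 without S1 sample 3. It was 2 without S1 sample 1 or without the sample with GM6001, MMPs and ADAMs or LY294002. In the first table alone the 1 call was IGFBP5. The contrasts share samples, so their counts are not independent of each other.

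**Figure D4:**
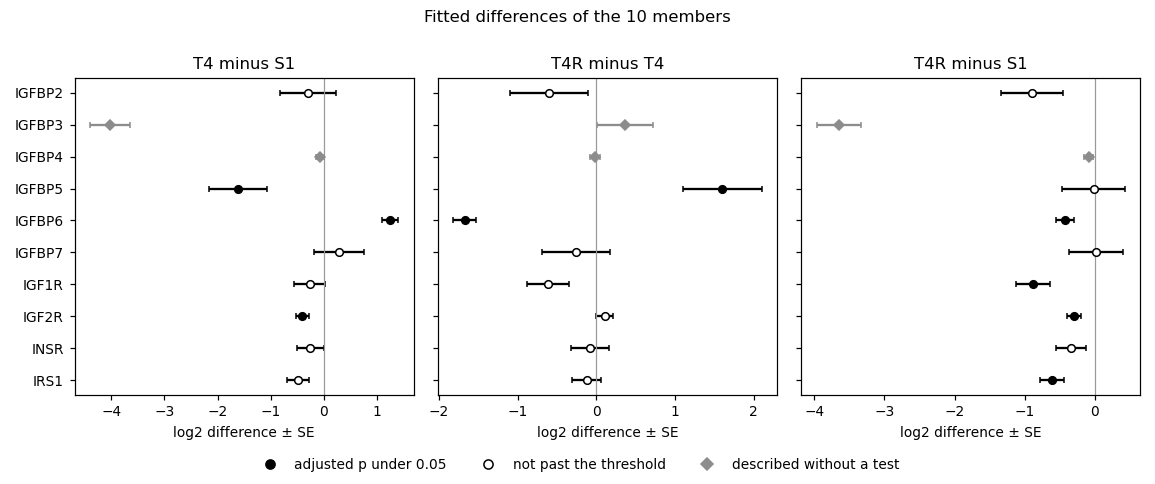
Fitted log2 differences with their standard errors for the 10 members in the 3 contrasts, from 1 limma fit over 15 samples with the table as a term; filled circles passed an adjusted p of 0.05, open circles did not, and grey diamonds (IGFBP3, IGFBP4) are given with no test. IGFBP5 and IGFBP6 are filled points on opposite sides of 0 in T4 minus S1, where IGF2R is filled too. They are so again, turned about, in T4R minus T4.

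The agents were also grouped by target into 3 classes of 3: proteases, the MAPK, PI3K and Rap1 arm, and EGFR with β1-integrin. The limma F-test called 0 of 9111 genes (0.0%), with 496 genes at an unadjusted p under 0.05. The members' adjusted p ran from 0.903 for IGF1R and INSR to 0.985 for IRS1. The EGFR and β1-integrin class lies wholly in the second table, while the protease agents GM6001 and MMPs and ADAMs are in the first. Class is thus partly confounded with table. With 3 samples a class, this does not show that the classes act alike. IGF1R in the LY294002 sample was at 0.035 log2 units from the T4 mean of the same table, while GM6001 was at -0.62 and MMPs and ADAMs at -0.94. IGFBP7 with LY294002 was at -1.75 from that mean, and with GM6001 at 0.048. IGFBP6 with GM6001, MMPs and ADAMs and LY294002 was at -1.70, -1.67 and -1.74 from the T4 mean, each below the lower quartile of its array, where differences between agents could hardly be seen. None of these single-sample values was tested.

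The other genes of the axis were read from lists of 72 genes, of which 63 were measured and 46 tested. The ligands and carriers IGF1, INS, IGFALS and IGFBP1 lay below the tested limit, with IGF1 at 6.96 ± 0.13 in S1, 6.94 ± 0.03 in T4 and 6.94 ± 0.07 in T4R (mean ± SD). In T4 against S1, 7 of the 46 were higher and 8 lower, with a median of -0.073, where 26.9% of all genes passed. In T4R against T4, 8 were higher and 6 lower, where 14.9% of all genes passed, and in T4R against S1, 4 were higher and 7 lower, where 23.2% passed, with a median of -0.03 in each. The last count was 6 without S1 sample 1 and 7 without S1 sample 2 or 3.

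Among IGFBP proteases and their inhibitors, HTRA1, a secreted serine protease that cleaves IGFBP5, fell from 12.4 ± 0.39 in S1 to 11.2 ± 0.46 in T4 (log2 difference -1.29, limma adjusted p = 0.00555). CTSD, the lysosomal protease cathepsin D, fell from 8.92 ± 0.16 to 7.66 ± 0.12 (-1.14, limma adjusted p = 3.94e-05). In T4R CTSD was at 8.79 ± 0.27, higher than in T4 (0.88, limma adjusted p = 0.000393). STC2, an inhibitor of PAPPA, was at 9.28 ± 0.54 in S1, 8.42 ± 0.27 in T4 and 7.46 ± 0.40 in T4R. It was lower in T4R than in T4 (-1.25, limma adjusted p = 0.00647) and than in S1 (-1.96, limma adjusted p = 6.93e-05), both kept whichever sample was left out. With the mean of all probe sets these differences were -0.79 and -1.11, both still called.

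Among adaptors and regulators, PTPN1, a phosphatase that dephosphorylates the insulin and IGF1 receptors, was at 8.70 ± 0.29 in S1, 9.42 ± 0.30 in T4 and 8.62 ± 0.14 in T4R. It rose in T4 (0.81, limma adjusted p = 0.000865) and fell in T4R (-0.97, limma adjusted p = 0.000326), and with the mean of all probe sets these were 0.34 and -0.42, both still called. SOCS2, a feedback inhibitor of cytokine signalling, was at 7.63 ± 0.22 in S1, 8.17 ± 0.46 in T4 and 6.94 ± 0.10 in T4R. It was lower in T4R than in T4 (-1.21, limma adjusted p = 0.000549) and than in S1 (-0.68, limma adjusted p = 0.00617). GRB10, an adaptor that inhibits these receptors, was at 9.16 ± 0.74 in S1 and 8.16 ± 0.36 in T4R (-0.85, limma adjusted p = 0.0221), a call lost without S1 sample 1, S1 sample 2 or the MMPs and ADAMs sample (adjusted p up to 0.102). It was also lost with the mean of all probe sets (-0.46, 0.0788) or the probe set of largest interquartile range (-0.45, 0.277), and without S1 sample 3 it was -1.30 (0.00515).

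In the PI3K arm, FOXO1, a transcription factor that AKT holds out of the nucleus, was at 10.7 ± 0.48 in S1, 8.55 ± 1.03 in T4 and 9.41 ± 0.37 in T4R. It was lower in T4 than in S1 (-2.35, limma adjusted p = 0.00033) and higher in T4R than in T4 (1.34, limma adjusted p = 0.0145), the latter not called in the first table alone (0.0901) or with quantile normalization and no table term (0.90, 0.0687). Without T4 sample 3 it was 0.74 (0.00191), and with array weights 0.87 (0.000378). T4R was still below S1 (-1.01, limma adjusted p = 0.0223), a call lost without any 1 of the S1 samples (adjusted p up to 0.0802), in the first table alone (0.181), with the mean of all probe sets (0.0531) and with the probe set of largest interquartile range (-0.61, 0.149). TSC2, which restrains mTOR with TSC1, was at 10.4 ± 1.38, 8.30 ± 0.16 and 9.46 ± 0.41. It fell in T4 (-2.36, limma adjusted p = 0.00171) and rose in T4R (1.64, limma adjusted p = 0.018), the rise not being called without T4 sample 1 (0.0597). With the mean of all probe sets these were -1.215 and 0.84, both still called. The PI3K subunit gene PIK3CD was higher in T4 than in S1 (0.94, limma adjusted p = 0.00259), as was the kinase gene GSK3B (0.95, limma adjusted p = 0.0106). GSK3B was at 8.62 ± 0.28 in S1, 9.48 ± 0.64 in T4 and 8.71 ± 0.19 in T4R. The GSK3B call in T4 against S1 was lost with S1 and T4 samples alone (1.01, 0.113), and without T4 sample 3 the difference was 0.58 (0.0113). PIK3CD was 0.54 with the mean of all probe sets, still called. PIK3R3, a regulatory subunit gene, was at 9.30 ± 0.645 in S1, 8.14 ± 0.37 in T4 and 9.75 ± 0.40 in T4R. It was higher in T4R than in T4 (1.23, limma adjusted p = 0.00753), at 0.77 with the mean of all probe sets (0.0187).

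Higher values in T4R than in S1 were called for PIK3CD (0.62, limma adjusted p = 0.0121), the kinase gene AKT1 (0.43, 0.0105), IGF2BP2 (0.39, 0.0474) and the mTOR activator gene RHEB (0.35, 0.0318). None of these 4 calls was kept without S1 sample 3, where the differences were 0.31, 0.38, 0.29 and 0.14 and the adjusted p 0.238, 0.0862, 0.284 and 0.462. RHEB was also not called without S1 sample 1 (0.0542). Among fits without 1 sample, IGF2BP2 kept its call only when that sample was T4 sample 2, T4 sample 3, MMPs and ADAMs or AIIB2 (adjusted p otherwise up to 0.284). IGF2BP2, which encodes a protein that binds IGF2 mRNA, was at 9.49 ± 0.14 in S1, 10.7 ± 0.35 in T4 and 10.01 ± 0.26 in T4R. It was higher in T4 than in S1 (1.38, limma adjusted p = 4.77e-05) and lower in T4R than in T4 (-0.99, limma adjusted p = 0.000782), at -0.65 with quantile normalization and no table term (0.0241). RXRA, a nuclear receptor reported to bind IGFBP3, was at 10.6 ± 0.42 in S1, 9.91 ± 0.23 in T4 and 10.9 ± 0.34 in T4R. It was higher in T4R than in T4 (1.14, limma adjusted p = 0.00811), and the difference was 0.68 with the mean of all probe sets (0.00476). HTRA1 in T4R was below S1 (-0.86, limma adjusted p = 0.0211), a call lost without S1 sample 1 or 2 or the GM6001 or MMPs and ADAMs sample (adjusted p up to 0.0873).

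**Figure D5:**
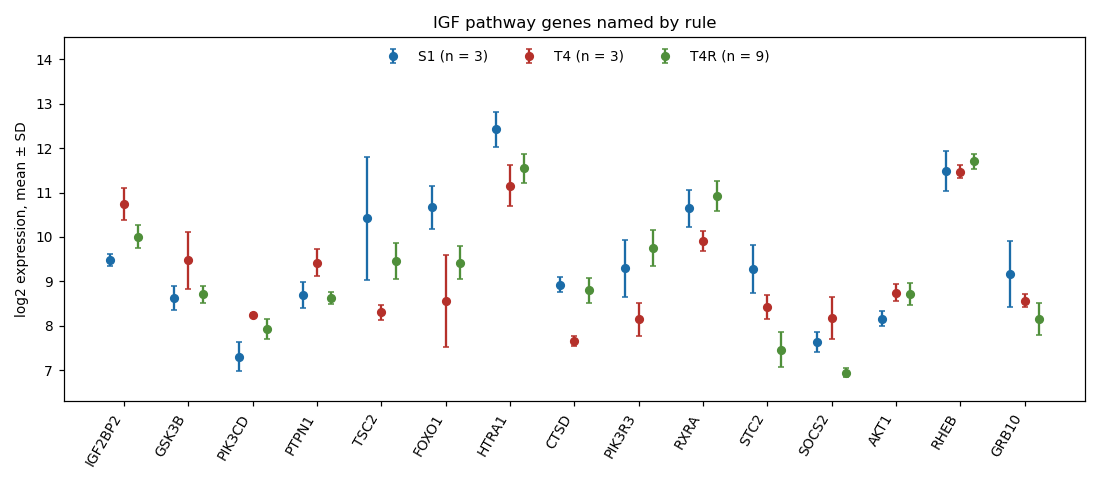
Mean ± SD of deposited log2 expression in S1 (n = 3), T4 (n = 3) and T4R (n = 9) for the 15 IGF pathway genes named by the rule; the vertical axis does not start at 0. FOXO1 and TSC2 are lowest in T4, IGF2BP2 and PTPN1 are highest in T4, and STC2 is lowest in T4R.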

How the data were processed

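Total RNA of 15 samples was measured on Affymetrix U133A-type arrays, per the labels. The deposited values, in 2 tables of the same 22215 probe sets, run from 6.21 to 14.5 and are log2 expression. How the authors summarised and normalized them is not given in the sources. The number of arrays limits the precision. Probe sets assigned to 1 gene by the platform annotations (19707) gave 12149 genes, each represented by its probe set of highest mean. The 25% of genes of lowest mean (limit 6.97) were left out and 9111 were tested with limma 3.58.1 in R 4.3.3 (lmFit, eBayes, 2-sided, Benjamini-Hochberg over all genes tested, threshold 0.05). The model had a mean for each of S1, T4 and T4R and a fixed table term, fitted to all samples at once. All T4 samples are in the first table, so T4 against the agents of the second runs through that term. Group means and SDs are of deposited values, differences and SEs are fitted.

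The members and lists were chosen with earlier results of these data known. All 10 members are named, and of the listed pathway genes the 4 largest changes in each direction past the threshold in each contrast. Same-numbered S1 and T4 samples deviated together from their group means (correlations 0.282, 0.315 and 0.391), and the replicate-block values are printed where they change a call. Differently numbered samples 1 and 2 did so as much (0.289 and 0.314). Samples numbered 3 deviated oppositely to samples 1 and 2 of the other line (-0.353 to -0.321). Deviations from a mean of 3 samples cancel within each gene, so these negative values follow largely from the positive ones. They are no separate result. S1 sample 3 and T4 sample 3 are in different tables. For S1 sample 3, array type and what the samples numbered 3 share cannot be told apart. On simulated data for T4 against S1 with 9111 genes, the fit recovered 74% of changes of log2 size 1 and 100% of size 2. That simulation changed 200 genes and drew independent noise for each sample, while 26.9% of genes were called in the data. The recovered shares therefore need not hold for the data. Promoter sequences are RefSeq's (GRCh38.p14). Alternatives covered probe set choice, filter, normalization, table term, array weights, replicate block and each sample left out.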

Additional observations from a re-analysis of the deposited data

How the results depend on the processing

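The calls of IGFBP6 in T4 against S1 and in T4R against T4 were kept under each alternative in which it was tested, and it was not tested with the lowest 50% of genes left out. Genes called over the whole table rose with array weights, to 4180 in T4 against S1, 3160 in T4R against T4 and 3854 in T4R against S1, and listed pathway genes called to 23 and 19 in T4 against S1 and T4R against S1. With the replicate block and the table term, T4 against S1 called 3661 genes, and IGFBP2 was the sole member whose call changed. The block without the table term called 1784 and lost TSC2 (adjusted p = 0.0613). Members other than IGFBP3 called in T4R against T4 were 1 with the mean of all probe sets, with no filter, with the lowest 50% left out and, chosen after seeing the data, with S1 sample 3 and T4 sample 3 both left out, and 4 with array weights, where IGF1R and INSR joined IGFBP5 and IGFBP6. In T4R against S1 they were 2 with the lowest 50% left out and with both samples numbered 3 left out, and 1 in the first table. Listed pathway genes called there were 7 with the mean of probe sets or the probe set of largest interquartile range. Leaving out 1 sample at a time gave 1 to 4, 1 to 3 and 0 to 4 members called in the 3 contrasts, 6 to 13 listed pathway genes in T4R against S1 and 0 to 10 genes for agent classes, where leaving out both samples numbered 3 gave 1. Signs turned in the following cases. In T4 minus S1, IGFBP2 was 0.43 in the first table alone and with S1 and T4 samples alone, 0.42 with array weights and 0.65 with the replicate block and with both samples numbered 3 left out. IGF1R was 0.105 with array weights and 0.091 in the latter 2 fits, and INSR 0.007 and 0.041. In T4R minus T4, IGFBP3 was -0.017 with quantile normalization across tables and no table term, -0.013 in the first table alone and -0.026 without both samples numbered 3. INSR was 0.38 in that quantile fit and 0.079 with the table as a random block, and IRS1 was 0.001 in the first table. In T4R minus S1, IGFBP2 was 0.31 in the first table and without both samples numbered 3, IGFBP5 was 0.088 in the quantile fit and 0.017 with the random block, and IGFBP7 was -0.054, -0.026 and, in the first table and without both samples numbered 3, -0.38. With 1 sample left out, T4 minus S1 ran from -0.78 to 0.43 for IGFBP2 and -0.42 to 0.046 for INSR. T4R minus T4 ran from -0.013 to 0.52 for IGFBP3, -0.53 to 0.31 for IGFBP7, -0.38 to 0.078 for INSR and -0.21 to 0.001 for IRS1, and T4R minus S1 from -1.27 to 0.31 for IGFBP2, -0.94 to 0.25 for IGFBP5 and -0.38 to 0.42 for IGFBP7. The cause of these changes was not tested. Signal limits IGFBP3 in T4 and T4R, IGFBP5 in T4, IGFBP4 throughout and IGFBP6 in T4R, which lie near the lower quartile of the arrays.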

Other observations

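The genome neighbours of the 3 binding proteins were read from RefSeq's gene order, a comparison chosen after the members' values were seen. Each of IGFBP3, IGFBP5 and IGFBP6 has a gene for a tensin, a focal adhesion protein, within 3 genes, and these did not share a course. TNS3, next to IGFBP3, was at 9.07 ± 0.29 in S1, 9.64 ± 0.69 in T4 and 10.6 ± 0.61 in T4R (mean ± SD, n = 3, 3 and 9), higher in T4R than in S1 (log2 difference 1.43, limma adjusted p = 0.0118). TNS1, near IGFBP5, was dim at 7.07 ± 0.08, 6.98 ± 0.04 and 7.15 ± 0.25, and no contrast passed the test. TNS2, near IGFBP6, was at 7.97 ± 0.30, 7.14 ± 0.07 and 7.26 ± 0.18, lower in T4 than in S1 (-0.82, limma adjusted p = 0.00199) while IGFBP6 was higher. In T4R against S1 TNS2 was lower (-0.72, limma adjusted p = 0.00165), as IGFBP6 was. IGFBP1, next to IGFBP3 on the other side from TNS3, lay below the tested limit at 6.70 ± 0.06, 6.88 ± 0.08 and 6.82 ± 0.10. HUS1, also within 3 genes of IGFBP3, was higher than S1 in T4 (0.89, limma adjusted p = 0.00227) and in T4R (0.72, 0.00314). Of all genes tested, 26.9% and 23.2% passed in these 2 contrasts. IGFBP2 and IGFBP5 adjoin on chromosome 2. S1 sample 3 was the highest S1 sample for IGFBP2, at 9.89, and the lowest for IGFBP5, at 7.66.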
